A study of Mus musculus with 55 samples.

Results

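The 39 genes described here act in mitosis and in the G2 phase before it. They were found by symbol in a table of 24478 gene symbols, with the transcript of highest mean taken for each symbol, and all 39 were present. RNA was sequenced from 10 cell populations sorted by flow cytometry from the livers of mice labelled as strain C57B/L6, taken either from normal liver or after partial hepatectomy (PH), the surgical removal of part of the liver, after which the remnant regrows. The 55 libraries comprise 27 from normal liver and 28 after PH. The hours or days after surgery, the sex and the age of the mice are not given in the sources used here.

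The populations carry the following abbreviations. HC are hepatocytes, with 4 normal and 4 PH libraries. cBEC are clonal biliary epithelial cells, with 4 normal and 2 PH libraries, and BEC are biliary epithelial cells, with 4 normal and 2 PH libraries. NPD are non progenitor ducts, with 2 normal and 2 PH libraries. EC are endothelial cells (2 normal, 3 PH), LSEC are liver sinusoidal endothelial cells (3 normal, 5 PH), KC are Kupffer cells, the resident macrophages of the liver (2 normal, 3 PH), and HSC are hepatic stellate cells (2 normal, 3 PH). Thy1 cells and blood cells have 2 libraries in each state. Libraries are named by state, population and the replicate number of their title, such as PH HC 1. The library titled PH cBEC 1 carries a treatment tag of normal; it was kept as titled. The labels do not say whether the libraries of a group came from separate mice, so p-values measure the spread between these libraries only.

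Cells enter mitosis when CDK1, bound to cyclin A or B, is switched on, with FOXM1 acting as a transcription factor for many of the genes involved. Polo-like and Aurora kinases then drive centrosome separation and spindle assembly, the checkpoint kinases and MAD2 hold the cell until every chromosome is attached, and CDC20 with the E2 enzyme UBE2C leads the anaphase-promoting complex to destroy cyclin B and securin. These transcripts are scarce in resting cells and accumulate late in the cell cycle, after those of DNA replication. The adult liver divides rarely, and after PH its hepatocytes enter the cycle first, followed by the other cell types.

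Many late cell-cycle promoters hold a CHR element, to which the DREAM and MYB-MuvB complexes bind, and CCAAT boxes, to which NF-Y binds. The promoter windows of 6 members are shown because 4 of them (Cdk1, Ccnb1, Plk1, Ube2c) belong to the core of the group and 2 (Cenpa, Ccnf), singled out after their values were seen, were least like the rest across the libraries. Each runs 5′ to 3′ over 300 bases, from 250 before to 50 after the RefSeq transcription start in build GRCm38.p6, a build other than that of the expression table. Capitals mark TTTGAA or TTTAAA (the CHR letters) and CCAAT on either strand, the reverse strand reading TTCAAA and ATTGG.
Cdk1: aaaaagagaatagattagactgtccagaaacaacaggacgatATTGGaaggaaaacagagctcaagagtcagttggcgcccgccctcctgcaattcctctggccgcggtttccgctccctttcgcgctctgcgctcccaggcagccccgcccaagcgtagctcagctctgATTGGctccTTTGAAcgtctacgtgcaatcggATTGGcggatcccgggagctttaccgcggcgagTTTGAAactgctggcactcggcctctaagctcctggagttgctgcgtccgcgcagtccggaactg
Ccnb1: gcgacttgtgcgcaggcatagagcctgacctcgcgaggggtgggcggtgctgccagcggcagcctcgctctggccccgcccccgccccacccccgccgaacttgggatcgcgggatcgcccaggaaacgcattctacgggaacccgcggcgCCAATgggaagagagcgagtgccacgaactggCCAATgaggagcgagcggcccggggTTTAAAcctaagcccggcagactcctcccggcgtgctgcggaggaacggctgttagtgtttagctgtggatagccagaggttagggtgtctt
Plk1: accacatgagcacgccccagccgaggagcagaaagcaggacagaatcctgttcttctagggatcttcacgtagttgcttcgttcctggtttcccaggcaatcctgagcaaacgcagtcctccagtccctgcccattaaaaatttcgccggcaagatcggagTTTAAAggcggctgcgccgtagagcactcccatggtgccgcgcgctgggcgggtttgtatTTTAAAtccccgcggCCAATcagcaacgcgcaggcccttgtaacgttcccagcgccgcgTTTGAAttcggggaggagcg
Ube2c: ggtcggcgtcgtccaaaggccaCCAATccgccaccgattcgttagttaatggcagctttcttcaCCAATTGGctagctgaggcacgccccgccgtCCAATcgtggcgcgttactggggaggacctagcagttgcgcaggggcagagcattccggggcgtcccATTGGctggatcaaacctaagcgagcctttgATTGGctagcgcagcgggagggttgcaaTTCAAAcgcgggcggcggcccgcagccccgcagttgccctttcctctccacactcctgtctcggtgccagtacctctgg
Cenpa: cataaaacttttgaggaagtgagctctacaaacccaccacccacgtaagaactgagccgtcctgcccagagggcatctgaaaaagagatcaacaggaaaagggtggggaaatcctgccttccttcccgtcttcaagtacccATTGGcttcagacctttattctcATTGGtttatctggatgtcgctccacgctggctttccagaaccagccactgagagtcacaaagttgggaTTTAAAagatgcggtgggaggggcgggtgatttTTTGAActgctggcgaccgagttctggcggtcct
Ccnf: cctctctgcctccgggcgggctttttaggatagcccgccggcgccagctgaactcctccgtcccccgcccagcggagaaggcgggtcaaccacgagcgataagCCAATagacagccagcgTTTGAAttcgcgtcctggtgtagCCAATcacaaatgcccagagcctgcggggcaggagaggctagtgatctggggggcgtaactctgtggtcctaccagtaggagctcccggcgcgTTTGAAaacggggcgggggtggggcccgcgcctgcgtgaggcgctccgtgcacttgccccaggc
The windows lie at chr10:69352863-69353162, minus strand (Cdk1), chr13:100786437-100786736, minus strand (Ccnb1), chr7:122159185-122159484, plus strand (Plk1), chr2:164769679-164769978, plus strand (Ube2c), chr5:30666636-30666935, plus strand (Cenpa) and chr17:24251360-24251659, minus strand (Ccnf). RefSeq windows were matched for 33 members, with 35 windows in all. TTTGAA or TTTAAA stood in 30 of the 35 windows (85.7%) against 27.6% of 32851 windows of all genes, and CCAAT stood in 28 (80.0%) against 37.4%. Both stood in 74.3% of the member windows and in 10.7% of all windows. For 40 genes of DNA replication and S phase, set beside the mitosis genes throughout, 23.7% of 38 windows held TTTGAA or TTTAAA and 57.9% held CCAAT. Cenpa and Ccnf each held 2 matches to the CHR letters and 2 to CCAAT, so these letters do not separate them from Cdk1, which held 2 and 3.

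Expression is given in FPKM (fragments per kilobase of transcript, scaled to the mapped fragments of the library), which can be compared between genes because it is per length. The number of reads behind a value is unknown; between 10630 and 18914 symbols per library were above 0. Alb, which encodes albumin, was listed at 0 in 46 of the 47 libraries that are not hepatocytes although it reached 67288 FPKM in normal HC, so a 0 in this table may not be a measured absence, and genes at 0 are described as listed at 0. Defining markers fitted the labels of the HC, cBEC, BEC, endothelial, KC and HSC groups, although EC also held the sinusoidal list at a high level. NPD held more of the mesothelial list than of the duct list, and other exceptions are given beside the results they touch. PH KC 1 and PH KC 2 were the most alike of all replicate pairs (SD of the log2 ratio 0.145 over 6437 genes at 10 FPKM or more, no identical value); whether they differ by more than sampling noise was not tested because depth is unknown. By the same measure Norm HC 1 and 4 (0.207) and Norm HC 2 and 3 (0.209) were close, while the other normal HC pairs stood at 0.584 to 0.677. Whether the normal HC libraries vary independently is not known. PH HC 1, PH KC 3 and Norm HSC 2 stood apart from their groups in these genes, and the results that rest on them are given with and without them. In sorted bulk samples, fewer cycling cells and less of a transcript per cycling cell cannot be told apart.

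**Figure D1:**
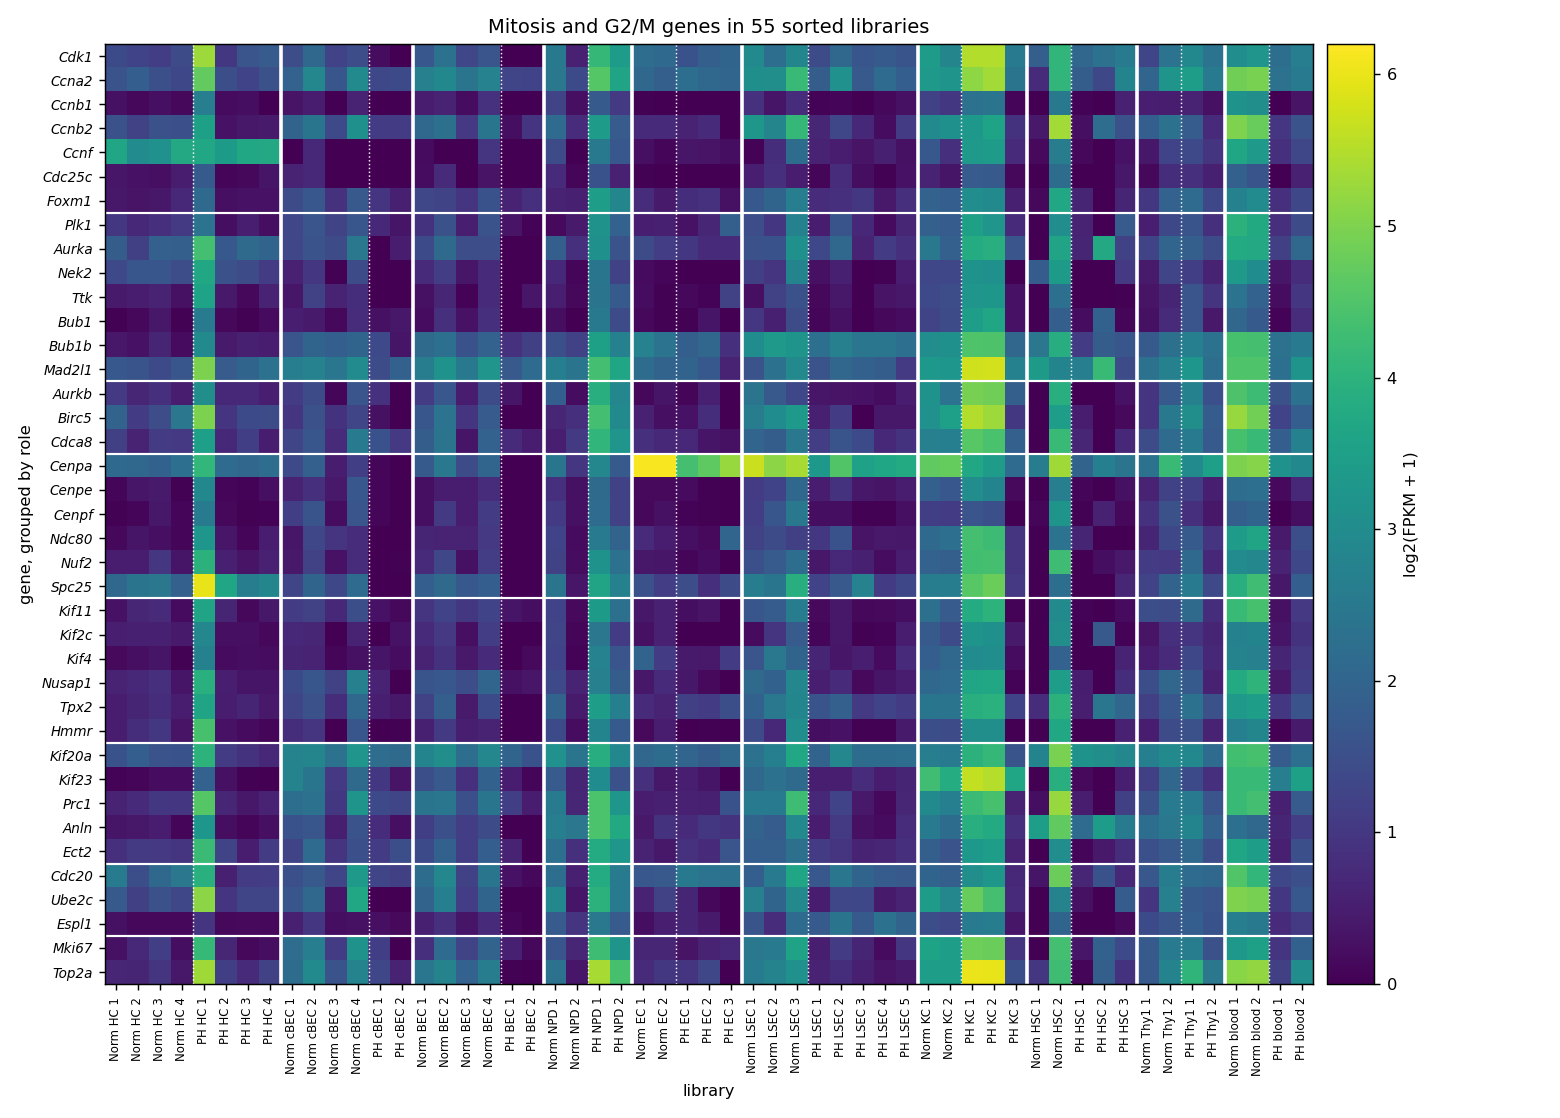
Level of each of the 39 genes (rows, grouped by role) in each of the 55 libraries (columns, grouped by population, normal before PH) as log2(FPKM + 1), shown by colour. The bright columns are both normal blood libraries, Norm HSC 2, PH HC 1, PH KC 1, PH KC 2 and PH NPD 1, and the Cenpa row is bright in EC and LSEC where the other rows are dark.

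In normal liver the mitosis genes were highest in the blood-cell sort. Blood had the highest mean for 31 of the 39 genes, and for 17 of them both blood libraries lay above every other normal library, where blood did so in 27.6% and 19.2% of all genes. The mean of the 39 genes, as log2(FPKM + 1), was 3.597 ± 0.023 (SD, n = 2) in normal blood, 2.32 ± 0.11 (SD, n = 2) in KC, 2.18 ± 0.46 (SD, n = 3) in LSEC, 1.54 ± 0.49 (SD, n = 2) in Thy1 cells, 1.37 ± 0.34 (SD, n = 4) in BEC, 1.37 ± 0.43 (SD, n = 4) in cBEC, 1.12 ± 0.69 (SD, n = 2) in NPD, 0.93 ± 0.07 (SD, n = 4) in HC and 0.92 ± 0.03 (SD, n = 2) in EC. Below blood, neighbours in this order overlapped in their libraries, except that the 3 LSEC libraries (1.89 to 2.70) lay above both Thy1 libraries (1.19 and 1.88). HSC had no single level: the mean was 0.57 in Norm HSC 1 and 3.49 in Norm HSC 2. Levels differed among the 10 normal populations for 36 of 39 genes (limma F test, adjusted p below 0.05), against 93.3% of all genes tested; Aurka, Hmmr and Cdc20 did not pass.

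By role, the chromosomal passenger complex stood highest in normal blood, with Birc5 (survivin) at 37.1 and 28.6 FPKM and Aurkb (Aurora B kinase) at 21.1 and 18.2. Top2a, the topoisomerase that untangles sister chromatids, was at 33.3 and 35.6 there, and Ube2c at 31.1 and 29.7. In the 4 normal HC libraries Top2a was between 0.31 and 0.93 FPKM and Ube2c between 1.27 and 2.37, so normal blood and normal hepatocytes did not overlap for either gene. The blood sort also held the white-cell markers: the summed level of 3 pan-leukocyte genes was 2817 to 3104 FPKM in normal blood and 773 to 892 in normal KC. Anln, an actin-binding scaffold of the cleavage furrow, was the gene for which HSC stood clear of every other normal library, at 10.1 and 24.7 FPKM against at most 6.52 elsewhere.

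**Figure D2:**
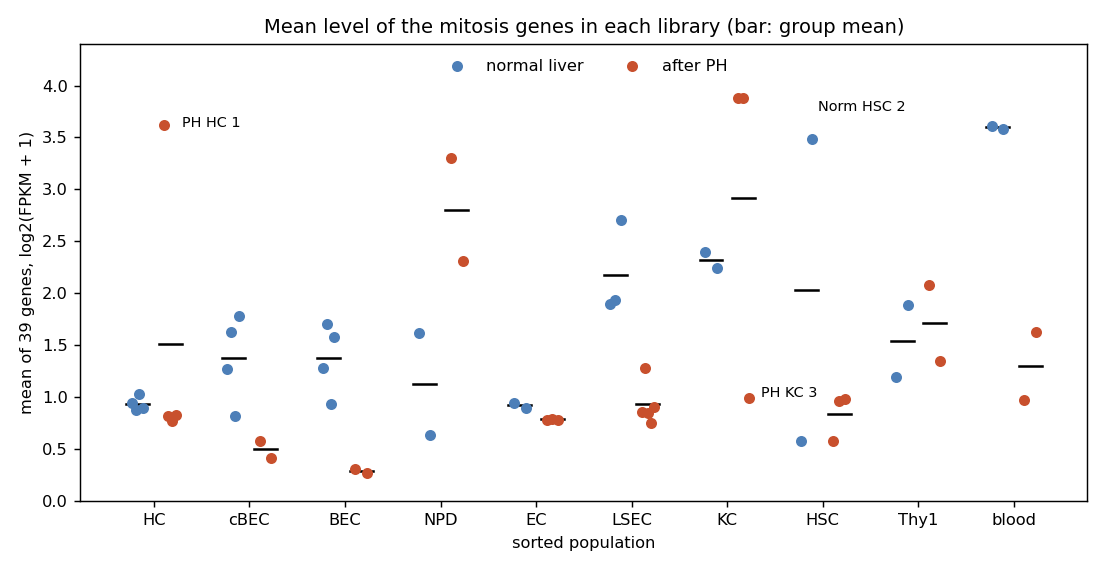
Mean of the 39 genes as log2(FPKM + 1) (vertical axis) in each library, by sorted population, with normal libraries in blue, PH libraries in red and a bar at each group mean. PH NPD libraries lie above both normal ones, PH cBEC, BEC, EC, LSEC and blood libraries lie below all of theirs, and PH HC 1 (3.62) and PH KC 3 (0.99) lie far from the other PH libraries of their population.

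After PH mitosis genes rose in the NPD sort, which carried mesothelial markers above its duct markers. Top2a went from 4.08 and 0.286 FPKM in normal NPD to 41.1 and 20.1 after PH, and Foxm1, the late cell-cycle transcription factor, from 0.511 and 0.454 to 10.1 and 6.18. Birc5 went from 0.576 and 0.813 to 19.3 and 6.87, and Cdca8 (borealin), its partner in the passenger complex, from 0.423 and 1.06 to 15.9 and 8.40. For all 4 genes both PH libraries lay above both normal ones, and PH NPD 1 was the higher of the PH pair. Of 38 members tested, 12 rose and none fell (limma, adjusted p below 0.05), where 9.65% of 13024 genes rose and 5.51% fell. In Norm NPD 1 and 2, 30 and 6 members reached 1 FPKM, and in PH NPD 1 and 2, 39 and 38 did. Some tested members, Foxm1 and Birc5 among them, passed the filter on low genes through the PH libraries alone. The lack of falls among these carries little weight. The largest changes on the log2(FPKM + 1) scale were 3.54 (SE 0.71, adjusted p = 0.0352) for Top2a, 2.90 (SE 0.49, adjusted p = 0.0240) for Birc5, 2.88 (SE 0.39, adjusted p = 0.0164) for Cdca8 and 2.59 (SE 0.32, adjusted p = 0.0138) for Foxm1.

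The members that rose in NPD came from most roles. Among kinases and checkpoint proteins 4 of 7 rose (Plk1, Ttk, Bub1b and Mad2l1), and among cyclins and CDK1 activators Ccna2 (cyclin A2) and Foxm1 did. Mki67, the antigen Ki-67 that coats mitotic chromosomes, rose by 2.57 (SE 0.50). Nuf2, a subunit of the NDC80 complex at the kinetochore, and Anln rose as well, while none of the 6 spindle motors and microtubule proteins and none of the 3 anaphase genes passed. Ccnb1 (cyclin B1) was at 1.42 and 0.203 FPKM in normal NPD and at 2.40 and 1.07 after PH, with overlapping libraries. Over all 39 members the median change was 1.62 against 0.09 over all genes tested, and in 30 members the PH libraries lay above both normal ones, as they did in 36.9% of all genes.

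The NPD count was 1 when no filter on low genes was used. No member passed without PH NPD 1 or without PH NPD 2, and 25 rose without Norm NPD 1, the normal library with the higher mitosis mean (1.61 against 0.63). Macrophage transcripts moved the other way: the 8 measured Kupffer markers summed to 151 to 312 FPKM in normal NPD and 21.3 to 30.5 after PH, with none of the 8 at 0 throughout. NPD libraries also held the mesothelial list of 6 genes at 5399 to 6043 FPKM before and 4758 to 5469 after PH, and the duct list of 8 genes at 2658 to 3904 and 4006 to 4817. Their part in the result was not tested.

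In LSEC mitosis genes were lower after PH. Ccnb2 (cyclin B2) was at 8.73, 6.01 and 16.5 FPKM in the normal libraries and at 0.577, 1.496, 0.601, 0.158 and 1.14 after PH. Birc5 was at 5.16, 7.13 and 9.05 in normal LSEC and at 0.457, 1.15, 0, 0.323 and 0.318 after PH. Top2a was at 5.001, 5.83 and 7.79 in normal LSEC and at 0.515, 0.761, 0.461, 0.261 and 0.375 after PH. In each of the 3 genes every PH library lay below every normal one. Of 31 members tested, 19 fell and none rose, where 4.31% of 11501 genes fell and 4.15% rose. From 30 to 37 members reached 1 FPKM in the normal libraries and from 11 to 20 in the PH libraries. Some tested members, Top2a among them, passed the filter on low genes through the normal libraries alone. The lack of rises among these carries little weight. The 4 largest falls were in Ccnb2 (log2 change -2.62, SE 0.35, adjusted p = 0.00294), Birc5 (-2.50, SE 0.29, adjusted p = 0.00185), Prc1, the microtubule bundler of the central spindle (-2.49, SE 0.42, adjusted p = 0.00864), and Top2a (-2.28, SE 0.23, adjusted p = 0.00125).

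By role in LSEC, 4 of 5 cytokinesis genes fell (Kif23, Prc1, Anln, Ect2), as did 3 of 4 tested spindle proteins (Kif11, Kif4, Nusap1) and both Mki67 and Top2a. Of the kinases and checkpoint genes tested only Bub1b, the checkpoint kinase BubR1, fell, by 0.77 (SE 0.18). Espl1, the separase that cuts cohesin, was the one tested member with a positive change in LSEC (0.53, SE 0.32, adjusted p = 0.340). The median over all 39 members was -1.31 against -0.03 over all genes tested, and in 26 members every PH library lay below every normal one, against 10.5% of all genes. PH LSEC 2 had the highest mitosis mean of the 5 PH libraries (1.28 against 0.75 to 0.90). The count was 9 in a single fit of all groups, and leaving out any 1 library gave 14 to 22 falls. The leukocyte list summed to 4.11 to 34.5 FPKM in normal LSEC and 0.689 to 1.79 after PH, and the Kupffer list to 7.92 to 192 and 13.8 to 38.3; their part was not tested.

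In BEC, 7 of the 28 members tested fell after PH and none rose, where 1.57% of 12851 genes fell and 0.233% rose. Only 4 members reached 1 FPKM in PH BEC 1 and 4 in PH BEC 2. Most tested members therefore passed the filter on low genes through the normal libraries, where they were higher. The lack of rises among them carries little weight. Top2a was at 4.41, 5.84, 2.89 and 5.06 FPKM in normal BEC and at 0.0290 and 0 after PH. Cdk1 was at 2.21, 4.08, 1.51 and 2.13 in normal BEC and listed at 0 in both PH libraries, as were Cenpa, Spc25 and Aurka. The other 2 that fell were Ccna2, from 4.24 to 6.46 FPKM to 1.45 and 1.36, and Nusap1, a spindle microtubule protein, from 1.74 to 3.07 to 0.222 and 0.294. The largest falls on the log2 scale were -2.42 (SE 0.28, adjusted p = 0.00813) for Top2a, -1.93 (SE 0.32, adjusted p = 0.0265) for Cenpa, -1.89 (SE 0.25, adjusted p = 0.0130) for Spc25 and -1.75 (SE 0.32, adjusted p = 0.0381) for Cdk1; for the 3 of these listed at 0 after PH the size depends on the added 1. In 35 of the 39 members both PH libraries lay below all 4 normal ones, against 22% of the 12851 genes tested. The median change over all 39 was -0.97 against -0.12 over all genes tested. The 39 include members that were not among the 28 tested.

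Zeros were frequent in this comparison. In PH BEC 18 of the 39 members were listed at 0 in both libraries and in normal BEC none was at 0 throughout. Among members with a normal BEC mean from 1 to below 5 FPKM, 7 of 22 were listed at 0 in both PH libraries, and among all 2609 genes in that range 4.79% were. The count of falls was 2 without Norm BEC 1 or without Norm BEC 4, 16 without Norm BEC 3, and 0 without PH BEC 1 or without PH BEC 2. It was 12 with a pseudocount of 0.1, 2 with no filter, 2 with quantile scaling and 1 in a single fit of all groups. Leukocyte transcripts were also lower, at 9.31 to 23.5 FPKM over 3 genes in normal BEC and 0.0495 to 0.344 after PH, and the Kupffer list went from 148 to 412 to between 43.9 and 50.6, with Timd4 and Adgre1 at 0. The sinusoidal list went from 106 to 402 to between 9.61 and 13.6, and the endothelial list of 8 genes from 29.0 to 117 to between 1.12 and 2.04, with no gene of either at 0 throughout; their part was not tested.

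The cBEC sort had low values too, and no member passed. Of 26 members tested 0 were called, with 14 at an unadjusted p below 0.05, where 0.0681% of 13225 genes were called and 10.2% had an unadjusted p below 0.05. The smallest p-values were those of Spc25, a kinetochore subunit, and Cdk1. Spc25 was at 1.47, 3.03, 1.56 and 3.47 FPKM in normal cBEC and listed at 0 in both PH libraries (log2 change -1.71, SE 0.41, adjusted p = 0.330). Cdk1 was at 1.76, 3.30, 1.37 and 1.74 and then at 0.148 and 0 (-1.47, SE 0.40, adjusted p = 0.367). Both PH libraries lay below all 4 normal ones in 24 members, against 14.4% of all genes, and 7 members were listed at 0 in both PH libraries. Among members with a normal cBEC mean from 1 to below 5 FPKM, 2 of 24 were so listed, where 5.75% of all genes in that range were. The count stayed at 0 without PH cBEC 1, the library whose treatment tag reads normal. Markers of other cells were also lower: the Kupffer list summed to 82.6 to 131 FPKM in normal cBEC and 43.3 to 59.3 after PH, with 7 of its 8 genes at 0 in both PH libraries. The sinusoidal list summed to 12.5 to 155 and 11.98 to 17.01, and the leukocyte list to 0.161 to 11.8 and 0.236 to 0.432, with Ptprc at 0. Norm cBEC 3 had the lowest sum of all 3 lists among the normal libraries and the lowest mitosis mean (0.81); their part was not tested.

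The liver blood-cell sort, highest in normal liver, was lower after PH for every member. Kif11, the motor that pushes spindle poles apart, was at 17.2 and 20.03 FPKM in normal blood and 0.223 and 1.03 after PH. Ube2c was at 31.1 and 29.7 and then at 1.01 and 2.27, and Ccnb2 at 31.1 and 25.9 and then at 0.964 and 1.99. No PH blood library reached the level of a normal one in any of the 39 genes, a pattern seen in 52% of all genes. All 39 fell (limma, adjusted p below 0.05), in a comparison where 39.7% of 12819 genes fell and 24.3% rose. The largest falls were -3.64 (SE 0.31, adjusted p = 0.00133) in Kif11, -3.61 (SE 0.28, adjusted p = 0.00118) in Ube2c, -3.60 (SE 0.27, adjusted p = 0.00110) in Ccnb2 and -3.52 (SE 0.28, adjusted p = 0.00122) in Birc5. The smallest was in Cdk1 (-0.69, SE 0.23, adjusted p = 0.0490), at 7.16 and 8.48 FPKM before and 3.73 and 5.28 after PH.

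The median fall in blood was -2.13 against -0.31 over all genes. In PH blood Kif23, the central spindle motor, had the highest group mean, at 5.27 and 10.6 FPKM, although Cenpa was higher in PH blood 1 (7.93). Cell type markers changed strongly between the blood sorts. The T and NK list of 7 genes went from 3500 to 3849 FPKM to between 48.5 and 101.02, the B cell list of 4 genes from 542 to 780 to between 16.8 and 44.2, and the neutrophil list of 7 genes from 3151 to 3585 to between 844 and 2151. The Kupffer list rose from 743 to 1068 to between 11525 and 20107 FPKM, a range that spans that of normal KC (16100 to 17790), and no gene of these 4 lists was at 0 throughout. A change in which cells were sorted and a change in mitosis genes within a cell type cannot be told apart. The count was 21 without Norm blood 1 and 21 without Norm blood 2.

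**Figure D3:**
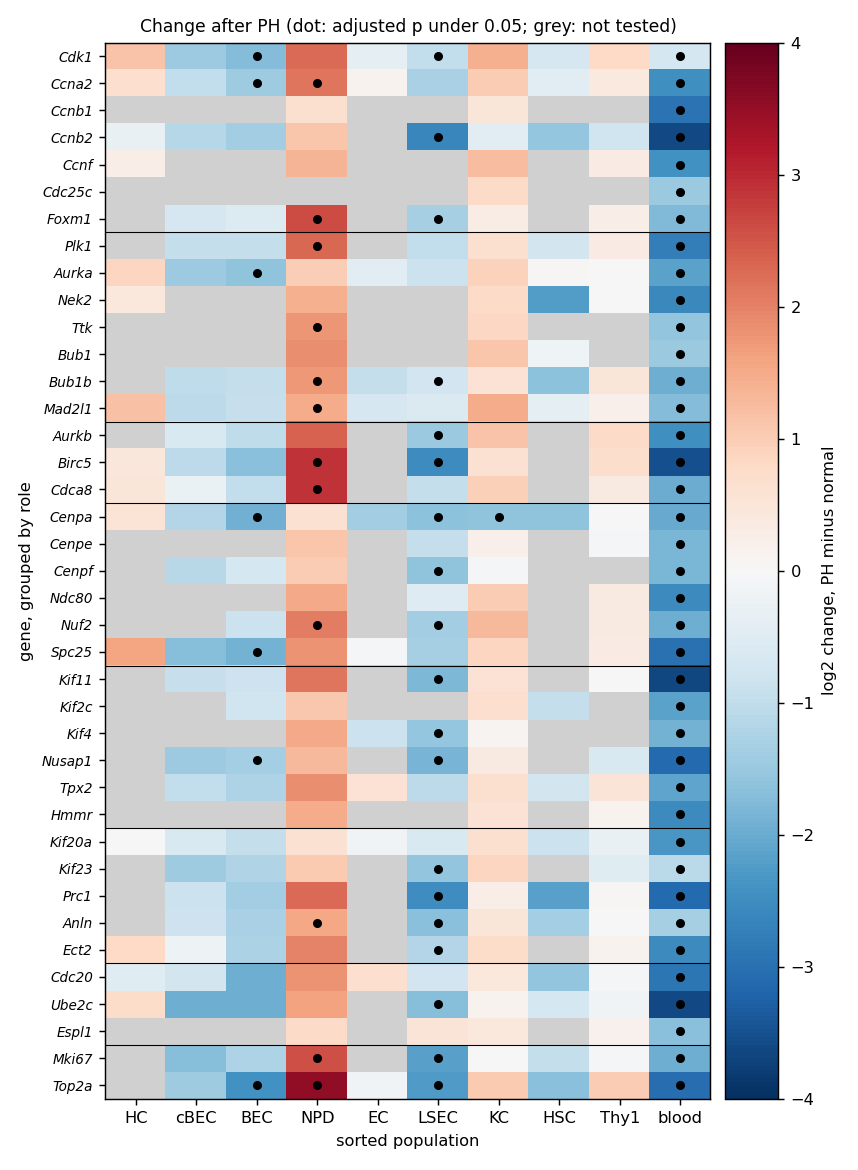
Change after PH for each gene (rows, grouped by role) in each population (columns) as the difference of mean log2(FPKM + 1), PH minus normal, red for higher and blue for lower; a dot marks an adjusted p below 0.05 and grey a gene not tested. Dots fill the blood column (39), and cover 19 genes in LSEC, 12 in NPD, 7 in BEC and 1 in KC.

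In KC the PH libraries did not form 1 group. Cdk1 was at 9.55 and 6.07 FPKM in normal KC, at 44.2 and 44.1 in PH KC 1 and PH KC 2, and at 4.94 in PH KC 3. Top2a was at 10.1 and 10.0 in normal KC, at 63.3 and 63.1 in PH KC 1 and 2, and at 1.82 in PH KC 3. Mki67 was at 11.1 and 10.2, then 27.5 and 26.6, then 0.952. PH KC 1 and 2 lay above both normal libraries in 38 members, as in 41.5% of all genes, with a median ratio of 3.72. PH KC 3 lay below both normal libraries in all 39, as in 51.8% of all genes. Over the members above 0 in PH KC 3, the normal level was 5.32 times that of PH KC 3 at the median. Hmmr and Cenpf were listed at 0 in PH KC 3.

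With all 3 PH libraries, 1 of 39 members passed: Cenpa fell (log2 change -1.61, SE 0.47, adjusted p = 0.0457), from 24.6 and 25.6 FPKM to 12.2, 9.62 and 3.46, where 20.1% of 11835 genes fell and 16.7% rose. The median change over the 39 was 0.64 against -0.04 over all genes. Without PH KC 3, 36 members rose and 1 fell, against 30.4% of genes that rose and 27.6% that fell, and the median change was 1.56. The largest rises were then in Top2a (2.54, SE 0.09), Mad2l1 (2.49, SE 0.09), Nuf2 (2.43, SE 0.12) and Cdk1 (2.39, SE 0.20). Ccnb2 (0.41, adjusted p = 0.0632) and Cenpf (0.45, adjusted p = 0.0708) did not pass, and Cenpa still fell (-1.14, SE 0.14, adjusted p = 0.00169). Cenpa was not called without Norm KC 1 (adjusted p = 0.197), without Norm KC 2 (0.198) or without PH KC 2 (0.0725), nor with a pseudocount of 0.1 or no filter.

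PH KC 3 matched the other PH KC libraries in Kupffer markers, which summed to 32148, 33145 and 33204 FPKM in PH KC 1, 2 and 3 against 16100 to 17790 in normal KC. Sinusoidal endothelial markers were at 4236 and 5680 FPKM in normal KC and at 552, 498 and 792 in the PH libraries; their part in the differences was not tested. PH KC 3 lacks a cell type tag, and its source name is that of the other KC libraries.

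Hepatocytes were likewise split by 1 library. Cdk1 was between 1.17 and 1.69 FPKM in the 4 normal HC libraries, at 38.5 in PH HC 1, and at 1, 2.09 and 2.45 in PH HC 2, 3 and 4. Ube2c was between 1.27 and 2.37 in normal HC, at 33.9 in PH HC 1, and at 0.920, 1.46 and 1.44 in the others. Hmmr, a spindle protein that also binds hyaluronan, was at 19.9 in PH HC 1 and at 0.24, 0.14 and 0.08 in the others. PH HC 1 lay above the other 3 PH libraries and above all 4 normal ones in 38 of the 39 members. It did so in 30.6% of the 10029 genes tested, and only 15 of the 39 members were tested. At the median its level in the members was 25.3 times the mean of the other 3. The exception was Ccnf (cyclin F, part of a ubiquitin ligase), at 11.9 FPKM in PH HC 1 against 9.40, 12.1 and 12.3. The median member mean over PH HC 2, 3 and 4 was 0.39 FPKM, so the size of the 25.3-fold ratio is uncertain.

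Over the 4 PH libraries no member of the 15 tested in HC passed, and 1 had an unadjusted p below 0.05, where 6.19% of 10029 genes were called and 21.5% had an unadjusted p below 0.05. The 2 smallest p-values belonged to Spc25 and Mad2l1, the checkpoint protein MAD2, which were also the 2 of 39 members with every PH library above every normal one, as in 4.99% of all genes. Spc25 was at 2.71 to 4.50 FPKM in normal HC and at 62.8, 11.7, 5.04 and 6.15 after PH (log2 change 1.57, SE 0.63, adjusted p = 0.183). Mad2l1 was at 1.64 to 2.26 and then at 30.4, 2.46, 3.01 and 3.95 (1.17, SE 0.60, adjusted p = 0.300). Without PH HC 1, 3 of 15 fell and none rose, against 4.88% and 2.01% of all genes. These were Cdc20 (-1.23, SE 0.29, adjusted p = 0.0469), Ccnb2 (-1.07, SE 0.16, adjusted p = 0.00721) and Kif20a, a central spindle motor (-0.74, SE 0.18, adjusted p = 0.0442). Cdc20 was then at 0.47, 1.14 and 1.19 FPKM against 1.82 to 4.96 in normal HC.

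Hepatocyte markers were high in every PH HC library, at 103799, 80483, 76876 and 73243 FPKM over 8 genes in PH HC 1, 2, 3 and 4. PH HC 1 held 15.5 FPKM of the Kupffer list, less than PH HC 2 (130) and more than PH HC 3 and 4 (4.77 and 4.61), and 0.42 FPKM of the leukocyte list. Sinusoidal markers were highest in PH HC 1, at 53.2 FPKM against 5.77 to 13.2 in the other 3.

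The S-phase genes, among them the MCM helicase subunits and the cyclins E, did not follow the mitosis genes in every library. In PH HC 1, PH KC 1 and 2 and both PH NPD libraries, the means of both groups of genes lay above every normal library of the population. In PH HC 2, 3 and 4, 25, 33 and 35 of the 40 S-phase genes lay above every normal HC library, while 6, 4 and 8 of the 39 mitosis genes did, against 20.2%, 17.3% and 17.3% of all genes. Mcm6 was at 2.12 to 2.86 FPKM in normal HC, at 66.7 in PH HC 1, and at 6.87, 12.7 and 13.6 in PH HC 2, 3 and 4. In PH KC 3, 28 of 40 S-phase genes lay above both normal KC libraries and 11 below both, while no mitosis gene lay above them, against 35.5% of all genes. Mcm5 was at 14.2 and 13.1 FPKM in normal KC, at 194 and 204 in PH KC 1 and 2, and at 38.1 in PH KC 3. In HC 8 of 33 tested S-phase genes rose and none fell (without PH HC 1, 9 rose and 1 fell). In KC 11 of 40 rose and none fell (without PH KC 3, all 40 rose). Over all genes, 1.78% rose and 4.41% fell in HC, and 16.7% rose and 20.1% fell in KC. The shares that rose were 2.01% in HC without PH HC 1 and 30.4% in KC without PH KC 3.

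**Figure D4:**
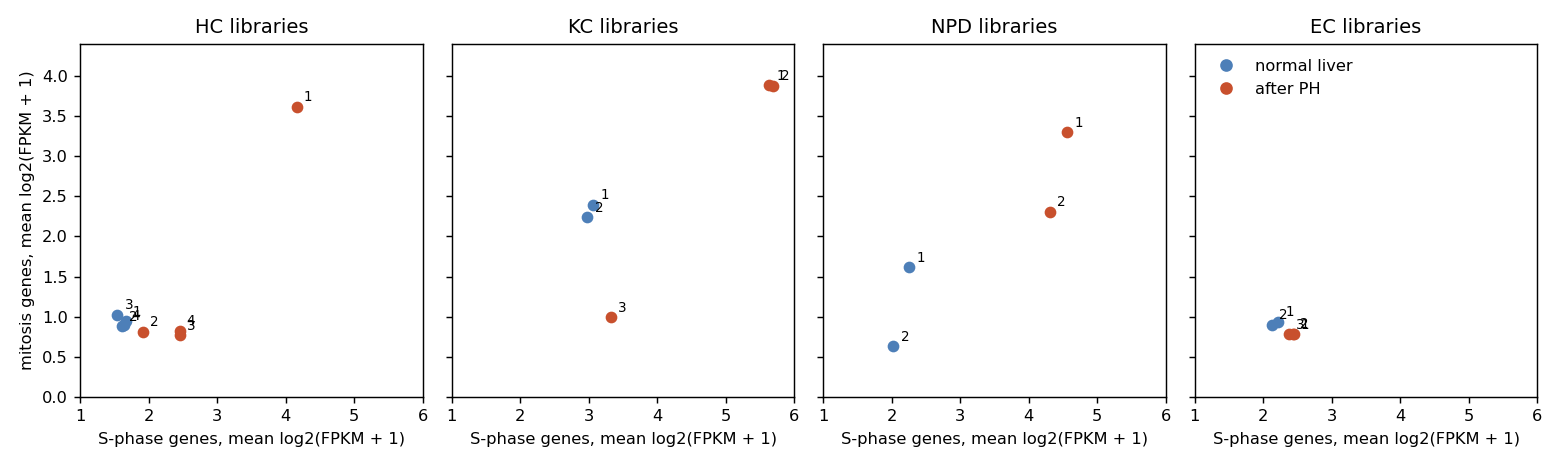
Mean log2(FPKM + 1) of the 39 mitosis genes (vertical axis) against that of 40 S-phase genes (horizontal axis), 1 point per library, numbered by replicate, in 4 populations, normal in blue and PH in red. PH HC 2 to 4, PH KC 3 and the PH EC libraries lie to the right of their normal libraries without lying above them; PH HC 1, PH KC 1 and 2 and both PH NPD libraries lie to the right and above.

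In NPD both groups rose: 33 of 40 S-phase genes rose and none fell, where 9.65% of all genes rose and 5.51% fell. The S-phase mean went from 2.26 and 2.02 to 4.56 and 4.31 on the log2 scale, and the mitosis mean from 1.61 and 0.63 to 3.30 and 2.31. In LSEC the groups differed in their counts, with 1 of 35 tested S-phase genes lower and 19 of 31 mitosis genes lower. Over all genes 4.31% were lower, and the difference between the groups was not tested. In blood 18 of 40 S-phase genes fell and 2 rose (Tk1 and Pcna), beside 39 of 39 mitosis genes that fell. The S-phase count of falls is near the share of all genes, of which 39.7% fell and 24.3% rose.

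EC, HSC and Thy1 cells gave no called member. In EC 0 of 12 tested members passed and 2 had an unadjusted p below 0.05, where 0.0249% of 12064 genes were called and 10.8% had an unadjusted p below 0.05. Cenpa was at 69.9 and 69.2 FPKM in normal EC and at 19.6, 24.3 and 36.6 after PH (log2 change -1.39, SE 0.27, adjusted p = 0.203). Cdc20 was at 2.24 and 2.34 and then at 4.71, 4.10 and 4.04 (0.68, SE 0.26, adjusted p = 0.433). In both genes the groups did not overlap, the first lower and the second higher after PH. Over the 39 members, every PH library lay above the normal ones in 3 and below them in 11, against 16.6% and 12.9% of all genes.

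In HSC 0 of 19 tested members passed and 3 had an unadjusted p below 0.05, where 0.00853% of 11729 genes were called and 8.48% had an unadjusted p below 0.05. Nek2, a centrosome kinase, was at 2.49 and 9.44 FPKM in normal HSC and at 0, 0 and 1.05 after PH (-2.25, SE 0.76, adjusted p = 0.507). Anln was at 10.1 and 24.7 and then at 3.47, 9.51 and 5.02 (-1.36, SE 0.57, adjusted p = 0.576). Most of the spread lay between the normal libraries: Mki67 was at 0 and 19.5 FPKM and Ccnb2 at 0.341 and 39.5 in Norm HSC 1 and 2. Norm HSC 2 also held more macrophage and leukocyte transcripts, with the Kupffer list at 965 FPKM against 76.0 in Norm HSC 1 and the leukocyte list at 78.6 against 1.32, while the stellate list was at 11467 and 9326. In Norm HSC 2 the sinusoidal list was at 1224 FPKM against 217, and the endothelial list at 369 against 72.0. Duct markers were lower there, at 0.292 against 35.1. The part of these markers was not tested, and the count of called members was also 0 without Norm HSC 2. It was 3 in a single fit of all groups.

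In Thy1 cells 0 of 32 tested members passed and none had an unadjusted p below 0.05, where 0.00747% of 13389 genes were called and 18.1% had an unadjusted p below 0.05. Ccnb2 was at 2.62 and 3.94 FPKM in normal and at 2.47 and 0.703 in PH Thy1 cells (-0.80, SE 0.48, adjusted p = 0.426). Cdk1 was at 1.44 and 4.16 and then at 6.41 and 4.13 (0.80, SE 0.49, adjusted p = 0.438). PH Thy1 1 lay above both normal libraries in 28 of 39 members and PH Thy1 2 in 2, against 34.4% and 30.4% of all genes, and PH Thy1 2 lay below both in 13, against 44.3%. Of the 40 S-phase genes, 36 and 28 lay above both normal libraries. The Thy1 and portal fibroblast list of 8 genes summed to 2043 to 2355 FPKM in normal Thy1 cells and 387 to 1445 after PH. The mesothelial list summed to 1890 to 2726 and then 1262 to 1925, and the endothelial list to 1001 to 1016 and then 1274 to 2500. The part of these markers was not tested. The median change over all 39 members was 0.21 in Thy1 cells, -1.20 in HSC, -0.12 in EC, 0.59 in HC and -0.85 in cBEC, against -0.06, 0.03, 0.02, -0.07 and -0.11 over all genes tested. In HC and HSC 1 library set the direction: the median was -0.09 in HC without PH HC 1 and 0.22 in HSC without Norm HSC 2, against -0.11 and 0.10 over all genes.

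The response to PH differed among the 10 populations for 28 of 39 members (limma F test on the population by treatment interaction), against 47.8% of 16527 genes; 18 passed without PH NPD 1. Direct tests compared pairs of responses that share no control libraries. The NPD response exceeded that of cBEC in 5 of 38 members (Top2a, Cdk1, Foxm1, Plk1 and Bub1b), where 3.53% of genes did so, and that of BEC in 9 of 38 (these 5 with Birc5, Cdca8, Spc25 and Ccna2), where 4.19% did. For Top2a the difference was 4.96 (SE 1.42, adjusted p = 0.0328) against cBEC and 5.96 (SE 1.42, adjusted p = 0.00651) against BEC. Without PH NPD 1 neither comparison called a member, and the cBEC comparison called none without PH cBEC 2. Other omissions left 1 to 6 calls against cBEC and 1 to 12 against BEC, with 1 call against BEC without Norm NPD 2, PH BEC 1 or PH BEC 2, and 4 without Norm BEC 2. Against cBEC, 1 remained without Norm NPD 2, 2 without Norm cBEC 2 or PH cBEC 1, and 3 without Norm NPD 1 or PH NPD 2 or with quantile or upper-quartile scaling.

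The HC response exceeded that of LSEC in 6 of 35 members (Top2a, Spc25, Anln, Cenpa, Kif4 and Cenpf), where 2.44% of genes did so. For Top2a the difference was 3.72 (SE 1.09, adjusted p = 0.0272). No member passed without PH HC 1, 11 passed without PH HC 3, 1 passed without Norm HC 4 or Norm LSEC 3, 2 without Norm HC 1 or PH LSEC 4, and 3 without Norm LSEC 2. With a pseudocount of 0.1 the count was 2. The KC response exceeded that of LSEC in 1 of 39 members, Kif23 (2.45, SE 0.81, adjusted p = 0.0407), where 3% of genes did so. The difference passed in 30 members without PH KC 3, in 4 with quantile scaling, and in 0 with a pseudocount of 0.1, no filter or upper-quartile scaling. In 10 other omissions the count was 0, namely without either normal KC library, PH KC 1 or 2, Norm LSEC 2 or 3, or PH LSEC 1, 2, 4 or 5. The EC and LSEC responses differed in 0 of 34 members, with 4 at an unadjusted p below 0.05, against 0.491% called and 7.2% unadjusted over all genes.

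After PH, KC had the highest group mean in 28 of 39 members, NPD in 7, HC in 3 (Ccnf, Spc25 and Hmmr) and EC in 1 (Cenpa). Levels differed among the 10 PH populations in 31 of 39 members, against 90.1% of all genes; 20 passed without PH NPD 1 and 20 without PH KC 1. The members in which NPD led were Foxm1, Cenpf, Prc1, Anln, Ect2, Cdc20 and Espl1. The KC means rest on 2 high libraries and 1 low one, and the HC means of Spc25 and Hmmr on PH HC 1.

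The 39 genes mostly moved together over the 55 libraries. The correlation of each with the mean of the other 38, on log2(FPKM + 1), had a median of 0.91 and exceeded 0.9 in 22 members; the points share libraries and populations, so this is a description. Lowest were Cenpa (0.42), Ccnf (0.51), Espl1 (0.71) and Anln (0.72). The genes outside the group most like its mean over the 20 group means were Casc5 (r = 0.97), Dlgap5, Cep55, Kif15, Knstrn, Ckap2l, Kif22, Neil3, Ncapg and Gtse1 (r = 0.94).

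Cenpa encodes the histone H3 variant that marks centromeres, and lies on chromosome 5 from 30969259 to 30977210 in mm9. It was the highest member in normal EC (69.5 ± 0.5 FPKM, SD, n = 2) and normal LSEC (41.7 ± 8.6, SD, n = 3), and both EC libraries stood clear of every other normal library. Top2a, by contrast, was at 0.691 and 1.01 FPKM in normal EC. Cenpa was lower after PH in LSEC (log2 change -1.64, SE 0.26, adjusted p = 0.00635), blood (-2.01, SE 0.18, adjusted p = 0.00135), BEC and KC, and did not pass in EC. In PH KC 1 and 2 it was the one member below both normal libraries, and in PH HC 1 it was at 16.2 FPKM against 3.16 to 3.62 in the other 3. The table holds 6 transcripts of Cenpa, of which the one with the highest mean was used.

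Ccnf lies on chromosome 17 from 24360177 to 24388354 in mm9. It was the highest member in normal hepatocytes, at 11.5, 6.89, 7.76 and 12.4 FPKM, and was about as high in all 4 PH HC libraries (9.40 to 12.3). In normal cBEC and BEC it was at most 0.933. It was at 11.6 and 9.14 in normal blood and 0.791 and 1.52 after PH, and at 2.28 and 0.794 in normal KC and 9.09 and 9.78 in PH KC 1 and 2.

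**Figure D5:**
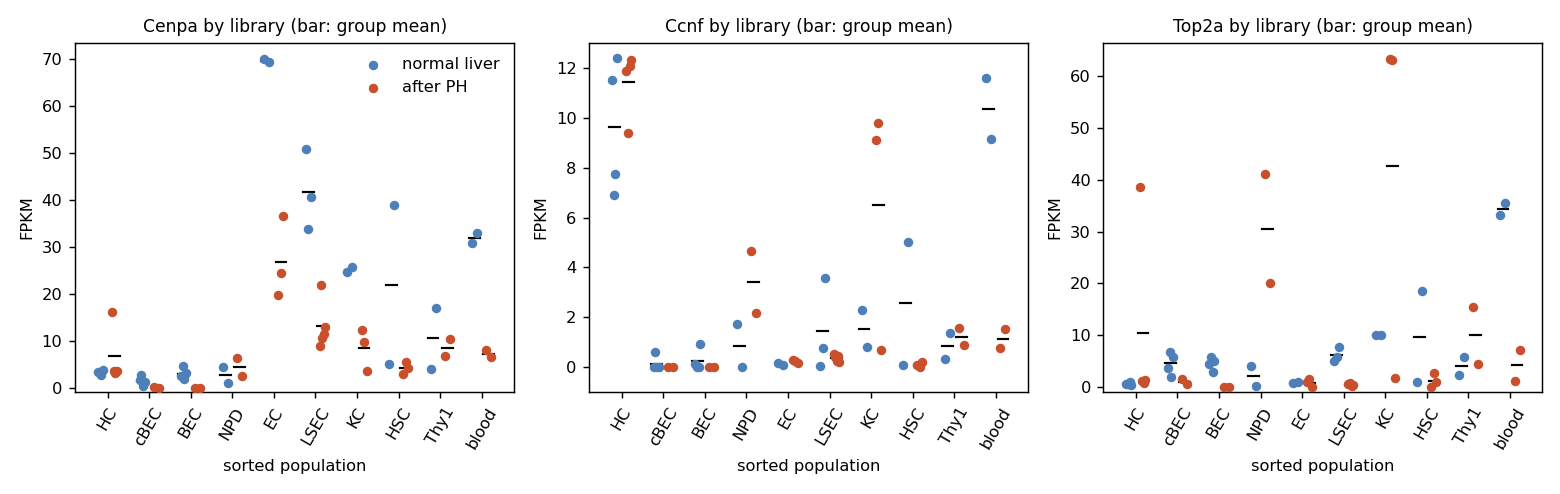
FPKM of Cenpa, Ccnf and Top2a (vertical axes, each from 0 on its own scale) in each library by population, normal in blue and PH in red, with a bar at each group mean. Cenpa is highest in normal EC and LSEC and lower there after PH, Ccnf is as high in HC of both states as in normal blood, and Top2a is high in PH HC 1, PH NPD, PH KC 1 and 2 and normal blood.

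Other genes of the pathway were read from fixed lists. Of 61 further mitotic genes in the table, 22 of 57 tested rose and 1 fell in NPD, and 16 of 43 fell in LSEC and none rose. In blood 54 of 58 fell and none rose, and in KC 3 of 59 rose and 1 fell (52 rose and 1 fell without PH KC 3). Over all genes, 9.65% rose and 5.51% fell in NPD, and 4.15% and 4.31% in LSEC. In blood 24.3% rose and 39.7% fell, and in KC 16.7% and 20.1% (30.4% and 27.6% without PH KC 3). The KC count with all libraries lay below the share of all genes. In NPD the largest were Spc24, the partner of Spc25 (3.19, SE 0.35), and Pbk, a mitotic kinase (3.01, SE 0.46). Their normal NPD means were 0.0488 and 0.450 FPKM, so they passed the filter on low genes through the PH libraries alone. The one that fell in NPD was Pttg1, securin (-1.02, SE 0.15). In LSEC Cdca3 (-2.14, SE 0.31) and Fam64a (-1.94, SE 0.34) fell most. In HC Pkmyt1, an inhibitory kinase of CDK1, was the 1 of 16 that rose (1.03, SE 0.22), and in BEC, cBEC, EC, HSC and Thy1 cells none was called.

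Condensin and cohesin genes rose in NPD in 5 of 13, led by Smc2 (2.34, SE 0.33), and fell in blood in 11 of 13 with 1 higher (Rad21). In LSEC 2 of 13 fell, Ncapg2 and Ncapd2. In KC 1 of 13, Ncaph2, rose, which is below the 16.7% of all genes that rose there. Subunits of the anaphase-promoting complex, with its activator Cdh1 (Fzr1), are also used outside mitosis. In NPD 1 of 13 rose (Anapc1), below the 9.65% of all genes that rose, and in blood 8 of 13 fell, against 39.7%. A list of 17 genes held subunits of the DREAM and MYB-MuvB complexes, which hold late cell-cycle promoters silent or switch them on. It also held Rb1 and other E2F factors that are not subunits of these complexes. Of the 17, 7 rose and 1 fell in NPD. E2f8 (2.52, SE 0.34) and E2f3, neither a subunit of these complexes, rose most there, and Rbl2, the pocket protein p130, fell (-1.35, SE 0.16). E2f8 was listed at 0 in normal NPD and passed the filter on low genes through the PH libraries alone. In blood 10 of 17 fell and 3 rose, and Rbl2 fell there too (-2.94, SE 0.18).

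Of the members, Ccna2, Nusap1, Kif20a and Cdc20 overlap a gene on the other strand (Exosc9, Oip5, Cdc23 and Elovl1). Whether strand was used in counting is not given in the sources used here, so reads in the shared stretches cannot be assigned. Foxm1 and Tpx2 each overlap 1, and Ccnf 2, small genes on their own strand.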

How the data were processed

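RNA from sorted mouse liver cells was lysed in TRIzol and sequenced after a standard Illumina library preparation, per the labels' protocols. Expression was deposited by the authors as FPKM per transcript. The submitters' processing notes list CASAVA 1.8.2, Bowtie 1.0.0 and mm9, without their roles. Sequencing depth is unknown, so no counting interval is given.

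From 36141 rows, 1 per symbol was kept, that with the highest mean over all libraries, leaving 24478 symbols. Values were tested as log2(FPKM + 1) with limma 3.58.1 in R 4.3.3 (trend and robust options), after keeping genes at 1 FPKM or more in as many libraries as the smaller group holds. Benjamini-Hochberg adjusted p-values over all genes tested were called below 0.05; because of the added 1, changes of weakly expressed genes come out smaller than their FPKM ratios. Each population was fitted alone. Tests of levels among populations used the 27 normal or the 28 PH libraries, and tests of responses used all groups. The procedure was tested on simulated data in which only more strongly expressed genes were changed, so that test does not cover weakly expressed members. The members and lists were chosen with earlier results of these data known. All 39 members could be named; per comparison the text names the 4 largest rises and falls past the threshold, or the 2 smallest p-values where none passed, and the 2 largest per pathway list and direction. Alternatives were another pseudocount, no filter, scaling by quantile or upper quartile, one fit over every group, leaving out hepatocyte-rich genes, a replicate block and omission of each library. Promoters are from RefSeq (GRCm38.p6).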

Additional observations from a re-analysis of the deposited data

Results flagged for a closer look

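PH HC 1 lay far from the other 3 PH hepatocyte libraries in the mean of the mitosis genes (3.62 on the log2 scale) and in 12 single genes. In FPKM these were Mki67 at 16.9, Top2a at 38.6, Cdk1 at 38.5, Ccnb1 at 5.24, Ccnb2 at 10.4, Plk1 at 4.11, Aurkb at 7.43, Cdc20 at 14.2, Birc5 at 30.5, Kif20a at 15.0, Ube2c at 33.9 and Foxm1 at 3.35. PH LSEC 2 stood apart from the other 4 PH LSEC libraries in the mean (1.28), in Plk1 (2.07 FPKM) and in Kif20a (6.33 FPKM). Norm cBEC 4 stood apart in Cdc20 (9.19 FPKM), and Norm HC 2 in Ccnb2 (1.35 FPKM) and Kif20a (2.63 FPKM). Norm cBEC 4 was also the only cBEC library with hepatocyte markers above 0, at 858 FPKM over 8 genes. The part of these markers was not tested. Of 65 groups of values examined 19 held such a library, where chance would give about 3.25, and the genes of 1 library are not independent.

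Tests of the difference itself called 28 of 39 members over all 10 populations, against 47.8% of all genes. The NPD response exceeded that of cBEC in 5 of 38 members (3.53% of all genes) and that of BEC in 9 of 38 (4.19%). The HC response exceeded that of LSEC in 6 of 35 (2.44%). The KC response exceeded that of LSEC in 1 of 39, which was no more than the share of all genes (3%). The libraries that decide these counts are named in the account above.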

How the results depend on the processing

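Counts of called members moved by over 1.5 times as follows; the cause was not tested. BEC (7) gave 12 with a pseudocount of 0.1, 2 with no filter, 2 with quantile scaling and 1 in a single fit of all groups. NPD (12) gave 1 with no filter. LSEC (19) gave 9 in the single fit, and HSC (0) gave 3. KC (1) gave 0 with the other pseudocount, with no filter and among genes under 10 FPKM in hepatocytes. NPD against cBEC (5) gave 3 with quantile and 3 with upper-quartile scaling. HC against LSEC (6) gave 2 with the other pseudocount. KC against LSEC (1) gave 0 with the other pseudocount, with no filter and with upper-quartile scaling, and 4 with quantile scaling. Leaving out 1 library gave 0 to 16 in BEC, 0 to 25 in NPD, 0 to 3 in HC, 14 to 22 in LSEC, 0 to 37 in KC and 21 to 39 in blood. It gave 18 to 39 for the response among all populations, 0 to 6 for NPD against cBEC, 0 to 12 for NPD against BEC, 0 to 11 for HC against LSEC, 0 to 30 for KC against LSEC, 27 to 39 among normal populations and 20 to 39 among PH populations. In cBEC, EC, HSC, Thy1 and EC against LSEC it stayed at 0. No called value changed sign, but without PH HC 1 the median change in HC went from 0.59 to -0.09 and Kif20a from 0.03 to a called -0.74, and without Norm HSC 2 the HSC median went from -1.20 to 0.22. Where 1 library was left in an arm, it was taken to vary like the others.

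Replicate numbers were not shown to pair the libraries: the correlations of same-numbered deviations ran from -0.672 to 0.574. With the number as a replicate block the count was 20 in BEC, 29 in NPD, 0 in LSEC, 37 in KC and 19 for KC against LSEC. Read depth is unknown, so the precision of single values cannot be stated.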
